A study of Mus musculus with 2 samples.

Results

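Gata2, a zinc finger transcription factor required for blood stem and progenitor cells, and the DNA around it were examined for Scl binding in HPC-7 cells. Gata2 was chosen by name, as 1 of 27025 genes with a RefSeq promoter sequence. Its locus was taken as chr6:88030000-88200000 in mm9, a span of 170 kb. Of the 52836441 windows of 200 bp tested in sample 1 and the 52613118 tested in sample 2, the locus held 3397 and 3396.

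HPC-7 cells are early mouse blood progenitors kept as a line, derived from ES cells according to the labels and grown in medium with stem cell factor. Chromatin of these cells was crosslinked (formaldehyde at 0.4%), broken into pieces of 200 to 500 bp and precipitated with antiserum against Scl. There was 1 such precipitation, and its DNA was read in 3 portions. Lanes 7 and 8 of an Illumina Genome Analyzer form sample 1, and lane 8 was loaded with more DNA than lane 7. Sample 2 is the portion read at another site. Both samples carry the same single condition, with no untreated, unprecipitated or second genotype group used here, so no groups were compared. Intervals and p-values therefore cover counting error within 1 precipitation and not variation between cultures. RNA was not measured, so the labelled cell type could not be checked against marker genes.

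Scl, also named Tal1, is a basic helix-loop-helix protein that pairs with E proteins and contacts E-boxes, whose letters are CANNTG. It is also brought to DNA in a complex with Lmo2, Ldb1 and a GATA factor, which contacts the GATA motif. In blood cells the Gata2 gene is known for a set of GATA switch sites, named by distance in kb from its distal start as -77, -3.9, -2.8, -1.8 and +9.5. These sites are held by Gata2 protein in early progenitors and by Gata1 later in the red cell lineage. The -77 site is a distant upstream enhancer and the +9.5 site an enhancer within an intron. All distances below are from the distal start, which was placed at position 88159532 of chromosome 6 in mm8 and 88143885 in mm9, on the plus strand.

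One region of the locus was called as enriched for Scl in each sample, and it lay at the -77 site. Its sequence is shown first because both motif types of the Scl complex lie close together in it. The bases were recovered from the sample 2 reads and cover chr6:88082489-88082738 of mm8 on the plus strand, 5′ to 3′. Capitals mark a GATA motif and an E-box, and n marks 6 bases that no read covered.

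-77 kb region: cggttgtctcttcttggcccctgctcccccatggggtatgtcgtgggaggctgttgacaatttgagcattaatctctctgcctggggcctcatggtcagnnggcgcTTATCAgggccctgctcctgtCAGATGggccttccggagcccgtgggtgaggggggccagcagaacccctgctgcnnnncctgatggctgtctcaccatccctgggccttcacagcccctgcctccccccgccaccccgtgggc

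The GATA motif was searched on both strands as GATA preceded by A or T and followed by A or G, and the E-box as CANNTG. At the -77 site the GATA motif read TTATCA, which is TGATAA on the minus strand, at chr6:88082595-88082600 or -76.937 kb. The E-box read CAGATG at chr6:88082616-88082621 or -76.916 kb. The gap between them was 15 bp, so the pair did not meet the 7 to 9 bp spacing searched for as a joint GATA and E-box motif. The pair with 3 bases on each side spans chr6:88082592-88082624 of mm8.

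-77 kb motif pair: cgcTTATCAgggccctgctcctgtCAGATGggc

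The E-box began 10 bp before the summit of the sample 2 reads and the GATA motif 31 bp before it. The summit is the centre of the windows with the most reads, which are set in 50 bp steps, so it does not resolve distances this small. Reads covered 97% of the bases within 100 bp of that summit. Within the same distance of their summits, 324 of all 775 sample 2 regions (41.8%) held a GATA motif and 424 (54.7%) held an E-box. Both motifs occurred in 211 of them (27.2%). The joint motif at 7 to 9 bp was found in 44 regions (5.68%), and the E-box form CAGCTG in 125 (16.1%), neither of them the -77 region. A median of 70% of bases was read in those regions, against 97% here, so shares over all regions are lower than full sequence would give. A match describes letters and is not evidence of contact.

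At the +9.5 site the sample 2 reads left the centre uncovered, and motifs were not counted there. The stretches that were read flank a gap and show which bases the site's reads came from. They cover chr6:88168773-88168824 and chr6:88168871-88168927 of mm8, plus strand, 9241 to 9292 bp and 9339 to 9395 bp from the start. Neither holds a GATA motif or an E-box, so no letters are in capitals.

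+9.5 kb stretch, left: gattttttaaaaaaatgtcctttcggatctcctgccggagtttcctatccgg

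+9.5 kb stretch, right: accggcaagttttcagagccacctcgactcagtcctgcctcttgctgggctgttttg

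At the distal promoter the reads covered 39 bases, chr6:88159366-88159404 of mm8 on the plus strand, and 39 of these 39 matched the RefSeq promoter sequence. That stretch is shown because it fixed the position from which every distance is counted.

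distal promoter stretch: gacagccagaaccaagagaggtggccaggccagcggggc

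Across its 300 bases the RefSeq distal promoter held no GATA motif and no E-box. The proximal promoter, 4.773 kb downstream in GRCm38, held no GATA motif and 1 E-box, CAGCTG. Among 32851 RefSeq promoters of that length, 29.8% held a GATA motif, 72.3% an E-box, 16.3% the CAGCTG form and 0.648% the joint motif.

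Sample 1 held 5632119 distinct reads, counted by chromosome, strand and start, and sample 2 held 4150610. A 200 bp window held 0.593 reads in sample 1 and 0.437 in sample 2 on average over the genome. The Gata2 locus as a whole was above that average, with a mean of 1.07 reads per window in sample 1 (1.80 times) and 0.663 in sample 2 (1.52 times). Each window was therefore tested against the larger of the genome average and its surrounding 10 kb, which includes the window itself. A window was called at a Benjamini-Hochberg adjusted p under 0.01 over all windows, an enrichment of 5-fold or more and no fewer than 20% of reads on either strand.

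**Figure D1:**
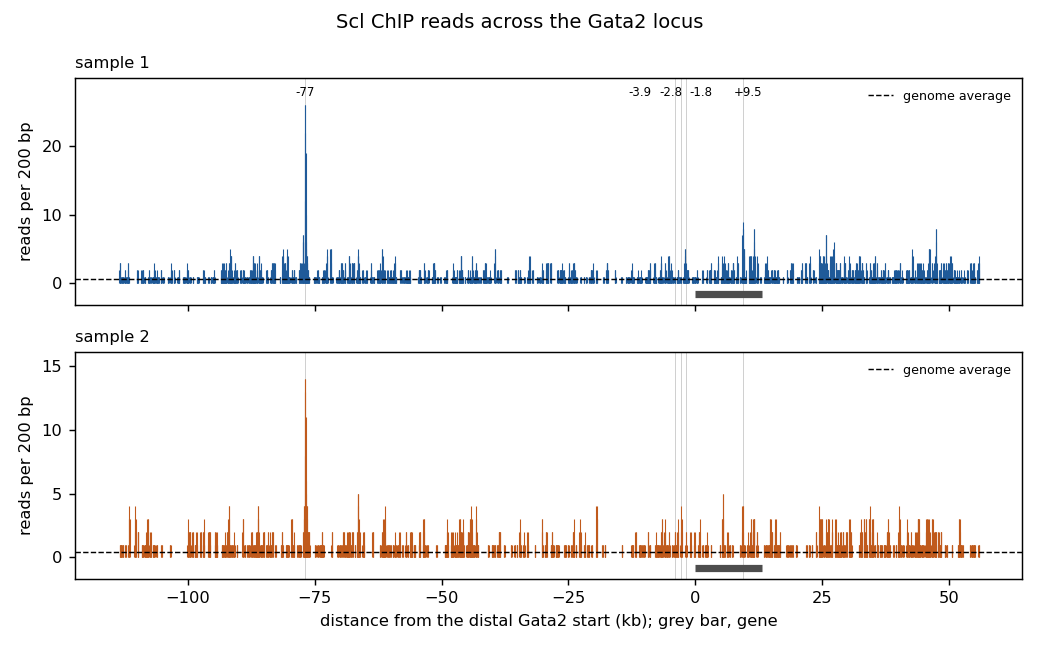
Distinct Scl reads per 200 bp window (vertical axis) along the Gata2 locus, by distance in kb from the distal start (horizontal axis), sample 1 above and sample 2 below. Thin vertical lines mark the 5 named sites, the grey bar the gene and the dashed line the genome average; the tallest column in each sample, 26 and 14 reads, stands at -77 kb.

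At the -77 site the best window held 26 reads in sample 1 (95% Poisson interval 17.0 to 38.1) where 1.84 were expected. In sample 2 it held 14 reads (7.65 to 23.5) where 1.02 were expected. It was the highest window of the locus in both samples. The enrichment was 14.1-fold (9.23 to 20.7) in sample 1 and 13.7-fold (7.50 to 23.0) in sample 2, a mean of 13.9-fold ± 0.286 (SD, n = 2 portions of the same DNA). The adjusted p of the one-sided exact Poisson test was 2.83e-16 in sample 1 and 2.60e-07 in sample 2. The called region covered chr6:88066751-88067150 of mm9 in sample 1 and chr6:88082451-88082800 of mm8 in sample 2. From the distal start these are -77.134 to -76.735 kb and -77.081 to -76.732 kb, so the calls overlap.

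The region made up 5 called windows of the locus in sample 1 (0.147%) and 4 in sample 2 (0.118%). Over the genome 0.0073% of windows were called in sample 1 and 0.00429% in sample 2. Overlapping windows share reads, so each count of windows stands for 1 region. No other region was called in the locus. The nearest other called regions lay 340.6 kb before and 2501.1 kb after it in sample 1, and 3233.2 kb and 3505.2 kb away in sample 2.

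Among all called regions, the -77 region ranked higher by reads than by enrichment. In sample 1 it was 149th of 1519 by reads and 442nd by fold, where the median region had 10 reads and 12.9-fold. In sample 2 it was 261st of 775 by reads and 537th by fold, where the medians were 11 reads and 16.0-fold. The 10 kb around it held 3.10 times the genome average in sample 1 and 2.33 times in sample 2. Against the surrounding 50 kb the mean fold was 20.9, against the genome average alone 37.9, and with 400 bp windows 8.91, and the region was called in both samples in each case.

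Reads of both strands flanked the motif pair at the -77 site. Within 300 bp of the summit sample 1 had 25 plus and 10 minus ends, and the median minus end lay 143.5 bp after the median plus end. Sample 2 had 13 plus and 11 minus ends, 149 bp apart. The median distance over all called regions was 120.5 bp for sample 1 reads and 119 bp for sample 2 reads. The read summits, at -76.91 kb in sample 1 and -76.906 kb in sample 2, lay close to the E-box. Being set by windows in 50 bp steps, they do not resolve on which side of it. Plus ends outnumbered minus ends in sample 1, while both were near even in sample 2.

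**Figure D2:**
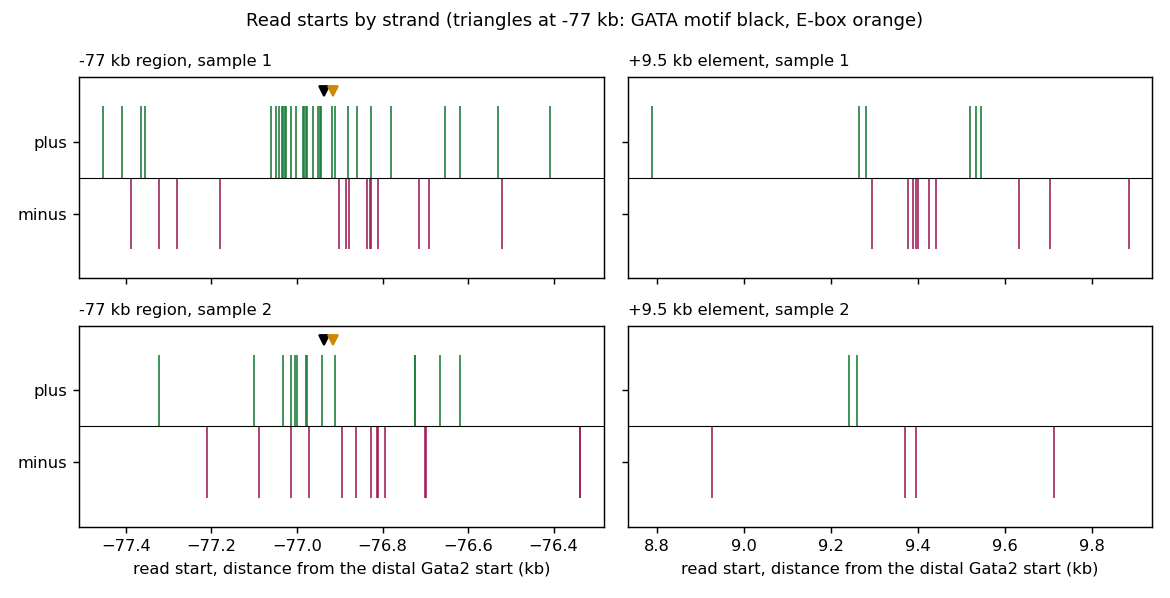
Starts of single reads on the plus (upper, green) and minus (lower, purple) strand at the -77 (left) and +9.5 (right) sites in both samples, by distance in kb from the distal Gata2 start. At -77 kb plus starts gather before the GATA motif and E-box (triangles) and minus starts after them. Within 300 bp of the centre at +9.5 kb, sample 1 has 7 minus starts with plus starts on both sides. Sample 2 has 2 starts of each strand there.

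The +9.5 site, the intronic enhancer, had the second highest stretch of the locus in sample 1 but was not called. Its best window held 9 reads in sample 1 (4.12 to 17.1) and 4 in sample 2 (1.09 to 10.2). These are 5.49-fold (2.51 to 10.4) and 5.88-fold (1.60 to 15.1) over the background, a mean of 5.69-fold ± 0.279 (SD, n = 2 portions of the same DNA). The counting intervals are far wider than this SD, which does not measure the precision of the fold. The exact Poisson p was 5.47e-05 in sample 1 and 0.00520 in sample 2, and adjusted over the genome these were 0.159 and 1. When the 171 stretches of 1 kb along the locus were ordered by their best window, the stretch ranked 2nd in sample 1 and 5th, with ties, in sample 2, where 9.94% of stretches had a best window of at least 4 reads. The median stretch had a best window of 3 and 2 reads.

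Against the genome average alone the +9.5 window was called in sample 1, at 15.2-fold and an adjusted exact Poisson p of 9.23e-05, and not in sample 2, at an adjusted p of 0.30. The median read ends within 300 bp of the sample 1 window centre also differed there. In sample 1, 5 plus and 7 minus ends gave a median distance of -124 bp. In sample 2, 2 ends on each strand gave 131.5 bp. The sample 1 value includes plus ends at 9519, 9534 and 9544 bp, whose reads fall outside the best window. The 9 reads of that window had plus ends at 9264 and 9281 bp. Their 7 minus ends, from 9295 to 9441 bp, all lay after these. Over all called regions, 20.4% in sample 1 and 28.4% in sample 2 had a distance below 0.5 fragment lengths. The relation of this layout to the call was not tested.

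The 3 sites just upstream of the distal start held few reads, and none was called in either sample. For these, as for the other named sites, the best window within 500 bp was taken, which need not include the named position. Each fold sets this best of several overlapping windows against the expectation for 1 window. At -1.8 kb the best windows held 5 reads in sample 1 and 2 in sample 2, which are 5.10-fold and 2.78-fold. At -2.8 kb they held 1 and 4 reads, 1.06-fold and 5.26-fold. At -3.9 kb they held 2 and 3 reads, 1.96-fold and 4.05-fold. The order of the 3 sites thus differed between the samples, and all 6 counts have overlapping 95% intervals. The lowest p of the exact Poisson test among them was 0.00336, for -1.8 kb in sample 1, with an adjusted p of 0.854. Of the 171 stretches of 1 kb, 11.1% in sample 1 and 62.6% in sample 2 had at least as many reads in their best window as -1.8 kb. For -2.8 kb these shares were 99.4% and 9.94%, and for -3.9 kb 87.1% and 31.0%. The 4 reads at -2.8 kb in sample 2 equal those at the +9.5 site in that sample.

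**Figure D3:**
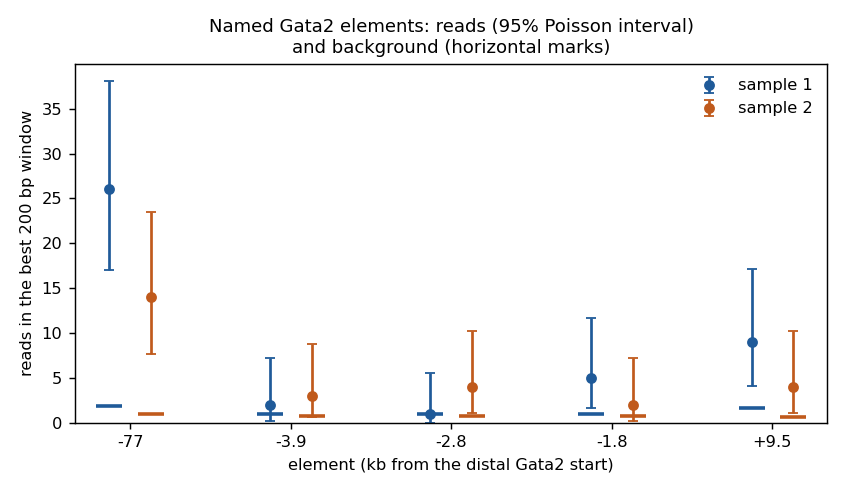
Reads in the best 200 bp window within 500 bp of each named Gata2 site (vertical axis), with 95% Poisson intervals, for sample 1 (blue) and sample 2 (orange); horizontal marks show the reads expected from the background. At -77 kb the counts of 26 and 14 lie far above their marks of 1.84 and 1.02; at +9.5 kb they are 9 and 4, and at the other 3 sites between 1 and 5.

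The 3 windows with the most reads that were not called all lay downstream of the start in sample 1. The first was the +9.5 window itself. The next began at 11.516 kb, near the end of the gene, with 8 reads, 5.33-fold and an adjusted exact Poisson p of 0.351. The same span held 3 reads in sample 2. The third began at 47.316 kb, downstream of the start of the neighbouring gene Dnajb8, with 8 reads against 2 in sample 2, 5-fold and an adjusted p of 0.383. In sample 2 the windows that followed -77 kb began at 5.269, -66.681 and -19.581 kb. They held 5, 5 and 4 reads, where sample 1 had 4, 4 and 2. Over the background these were 8.93-, 7.81- and 9.16-fold in sample 2, each above the 5.88-fold of the +9.5 window in that sample. Their adjusted exact Poisson p was 0.729, 0.932 and 0.932. No window outside -77 kb was among the first 3 uncalled windows of both samples.

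No window at either Gata2 promoter was called. Within 1 kb each side of the distal start there were 5 reads in sample 1 (1.62 to 11.7) and 7 in sample 2 (2.81 to 14.4), which are 0.843 and 1.60 times the genome average. Around the proximal start, set 4.773 kb downstream as in GRCm38, there were 14 (7.65 to 23.5) and 8 reads (3.45 to 15.8), 2.36 and 1.83 times the average, beside 1.80 and 1.52 times for the locus as a whole. The window at 5.269 kb that led the uncalled windows of sample 2 lies within this proximal span. In the 300 bases of each promoter the reads numbered 1 and 1 at the distal start and 0 and 1 at the proximal start, in samples 1 and 2.

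Read density along the locus was next compared by class, since the upstream, promoter and transcribed DNA of Gata2 hold different kinds of sites. In sample 1 the locus held 5.34 reads per kb. The upstream class, -113.885 to -1.001 kb, held 523 reads or 4.63 per kb, and the promoter, 1 kb each side of the start, 5 reads or 2.50 per kb. The gene body, 1.001 to 13.115 kb, held 87 reads or 7.18 per kb, and the downstream class, to 56.115 kb, 292 reads or 6.79 per kb. Upstream density was thus 0.868 times that of the locus (adjusted exact binomial p 3.73e-07), gene body density 1.35 times (0.0145) and downstream density 1.27 times (1.22e-05). The promoter, at 0.468 times, did not pass 0.05 (adjusted p 0.132). The test sets the reads of a class against its share of the locus length and takes reads as independent. It makes no allowance for DNA where reads cannot be placed, and no unprecipitated library was used. The p-values therefore describe read density and not Scl binding by class.

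In sample 2 the locus held 3.31 reads per kb and no class passed 0.05. The upstream class held 3.14 per kb, the promoter 3.50, the gene body 2.97 and the downstream class 3.84. The ratios to the locus were 0.95, 1.06, 0.897 and 1.16, with adjusted exact binomial p of 0.132, 0.843, 0.647 and 0.0656. With the called region and 500 bp each side left out, the upstream ratio was 0.924 (adjusted p 0.0247) and the downstream ratio 1.21 (adjusted p 0.0109), both then past 0.05.

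The gene body lay above the locus mean in sample 1 and below it in sample 2, so the split of reads between the samples was tested in each class, a test chosen after these values were seen. Sample 1 gave 57.6% of all reads of the genome. It gave 70.7% of gene body reads (61.9 to 78.6, adjusted exact binomial p 0.00839) and 63.9% of downstream reads (59.3 to 68.3, adjusted p 0.0101). It gave 59.6% of upstream reads (adjusted p 0.307) and 41.7% of promoter reads (15.2 to 72.3, adjusted p 0.382). For the whole locus the share was 61.7% (adjusted p 0.00701). Sequencing site, aligner and build differ together between the samples and cannot be told apart as sources of this difference. The same holds for the choice of reads, as only uniquely matched reads of sample 2 were used and sample 1 had no such filter here.

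**Figure D4:**
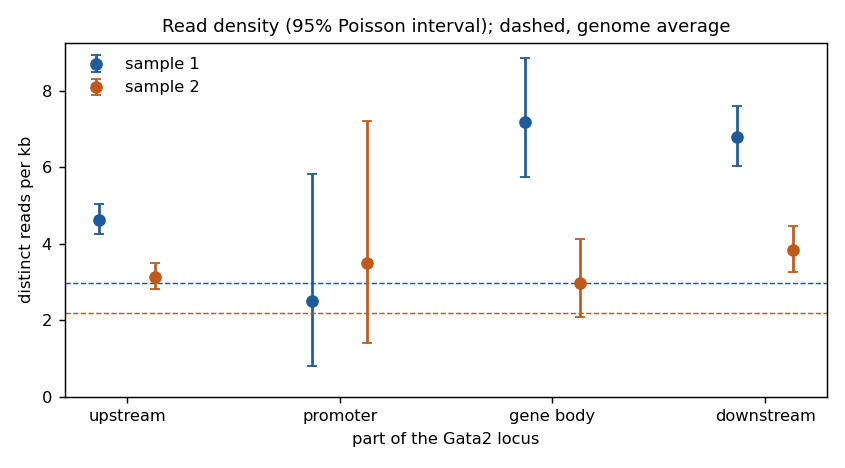
Distinct reads per kb (vertical axis) in 4 classes of the Gata2 locus, with 95% Poisson intervals, for sample 1 (blue) and sample 2 (orange); dashed lines show each sample's genome average. In sample 1 the gene body and downstream classes stand at 7.18 and 6.79 per kb, above the upstream class at 4.63; in sample 2 all 4 classes lie between 2.97 and 3.84.

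The -77 region drew reads from all 3 portions in about the proportions of their depth. Over 400 bp it held 32 reads in sample 1 and 19 in sample 2, so that sample 1 gave 62.7% (48.1 to 75.9) against 57.6% of all reads (exact binomial p 0.482, adjusted p 0.577). Of its ends, 4 coincided between the samples. Lane 7 gave 12 reads and lane 8 gave 21, a lane 7 share of 36.4% (20.4 to 54.9) against 28.6% of all reads (adjusted exact binomial p 0.337). The best window at the site held 11 reads and 18.97-fold in lane 7 alone (adjusted exact Poisson p 4.90e-06) and 18 reads and 13.8-fold in lane 8 alone (adjusted p 3.54e-10). A region was called from each lane on its own, and the best called window of lane 7 held 9 reads and 15.5-fold (adjusted exact Poisson p 0.00102). The lane 7 window of 11 reads was not itself called. It passed the limits on adjusted p and fold, so it fell short of 20% of reads on 1 strand.

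At the +9.5 site most sample 1 reads came from the shallower lane. Of its 9 reads over 400 bp, 6 came from lane 7 and 3 from lane 8, a lane 7 share of 66.7% (29.9 to 92.5) against 28.6% (exact binomial p 0.0199, adjusted p 0.0398). Lane 7 alone gave 11.5-fold and lane 8 alone 2.73-fold at the best window, with adjusted exact Poisson p of 0.452 and 1. The split between the samples, 9 reads against 4, was 69.2% (38.6 to 90.9, adjusted exact binomial p 0.577). The +9.5 enrichment therefore rested on lane 7 more than on lane 8; lane 8 holds 4084113 distinct reads and lane 7 holds 1635454.

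Neighbouring genes were placed by matching their promoters to sample 2 reads. Dnajb8, a gene for a co-chaperone of the Hsp40 family, starts 28.377 kb downstream of the Gata2 start, within the locus. Its end was not placed. Eefsec, which encodes the elongation factor for selenocysteine, starts at 252.648 kb, and the predicted gene Gm38855 at -140.047 kb. Rpn1 and further predicted genes were looked for as well but could not be placed in this way. The list of neighbours is therefore incomplete, also between Gm38855 and Gata2. No called region lay downstream of Gata2 within the locus in either sample.

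Because the called region lies far from its gene, Gata2 had 0 regions within 50 kb of its start and 1 within 100 kb in each sample. Of 8076 genes whose start could be placed in both samples, 10.4% had a region within 50 kb in sample 1 and 5.51% in sample 2. Within 100 kb the shares were 18.5% and 9.87%. The list of Scl partners and other blood stem cell factors held 16 genes, of which 7 were placed. Of these 7, 5 had a region within 50 kb in each sample. Lmo2, Ldb1, Tcf3, Gata1, Runx1, Fli1, Spi1, Gfi1b and Zfpm1 were not placed. Placing a start needed a sample 2 read in its promoter. The 7 genes and the 8076 were thus chosen by the same reads that form regions, and neither count covers unplaced genes.

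Tal1, which encodes Scl itself, had 1 region within 50 kb in each sample, and so had Erg, an ETS factor of blood stem cells, and Gfi1, a zinc finger repressor. Lyl1, the closest relative of Scl, had 3 regions in sample 1 and 2 in sample 2. Cbfa2t3, a corepressor that joins the Scl complex, had 4 in each. Gata3, a GATA factor of T cells, and Kit, the receptor for stem cell factor, had 0 in both samples at 50 and at 100 kb. Gata2 was the only one of these 8 genes whose count changed between 50 and 100 kb in either sample.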

How the data were processed

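Scl chromatin immunoprecipitation reads of HPC-7 cells were measured in 2 samples from 1 precipitation, described as 1 group. Per the text deposited with the files, sample 1 was aligned to mm9 with the Solexa software and sample 2 to mm8 with Eland. Aligner versions, and whether sample 1 holds only uniquely placed reads, are not stated in the labels or files. The deposited sample 1 file gives positions and a score per read, taken as read length (45 bp) less mismatches. For uniquely matched sample 2 reads, the deposited file lists sequence, position and match numbers.

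Distinct reads (94.8% and 96.6% of reads) were moved by 0.5 times the fragment length, estimated at 120 bp. Windows of 200 bp in 50 bp steps were tested as described in the report, with an effective genome length of 1.9e+09 bp, and called windows within 200 bp were merged. The window test was also run on simulated data, with reads scattered at random within their own 10 kb and clusters of reads added. Such reads follow the background that the test assumes, so the run cannot show false calls from uneven real background. Class and split tests were exact binomial, adjusted by Benjamini-Hochberg. All intervals cover counting error alone.

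The builds were tied by the offset at which read ends coincide, 15647 bp at the locus (60 coincident ends, 10 at the next best offset). The Gata2 start was placed in mm8 by 2 reads that match the RefSeq promoter (GRCm38.p6). Gata2 and Dnajb8 starts lay 28377 bp apart by reads and in GRCm38. Bases were read from sample 2, taking the letter in the mismatch code as the genome base. At 7661 of 7779 mismatch positions in promoters (98.5%) it equalled RefSeq. The region's place in exons or introns was not annotated, as no mm8 or mm9 annotation was used here. Sites searched, alternatives and the gene list were chosen with earlier results of these data known. Named windows were every called region, the 5 sites and the 3 uncalled windows with most reads per sample. For sample 2, reads with several matches, no match or poor quality were not used, having no position. For sample 1, all reads placed on an autosome, X or Y were used, with no filter on matches or quality. Python 3.11.15, numpy 2.4.6, scipy 1.17.1 and pandas 2.3.3 were used.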

Additional observations from a re-analysis of the deposited data

How the results depend on the processing

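The -77 region was called in both samples under every setting run (50 kb background, genome average, all reads, reads without mismatches, 400 bp windows, reads moved by 100 bp, fold of at least 10, and in sample 1 each lane alone). Against the genome average alone sample 1 had 5 regions at the locus in place of 1, the added ones at 9.166, 11.466, 25.666 and 47.316 kb, and sample 2 still had 1. Under that setting the genome held 10096 regions in sample 1 against 1519. Taking 1 sample at a time, the fold ranged from 13.7 to 14.1 at -77 kb, 1.96 to 4.05 at -3.9 kb, 1.06 to 5.26 at -2.8 kb, 2.78 to 5.10 at -1.8 kb and 5.49 to 5.88 at +9.5 kb. In sample 2 the promoter ratio turned from 1.06 to 0.906 with a promoter of 2 kb each side, and leaving out the called region took the upstream ratio to 0.924 and the downstream ratio to 1.21, past 0.05. Other class, split, motif and network results kept their direction and side of the threshold under the alternatives run. No paired analysis was possible because there is 1 group. Against local expectations of 1.64 and 0.68 reads, the 9 and 4 reads at +9.5 kb were not called. Against the genome average the 9 reads of sample 1 were. With reads without mismatches alone, the best +9.5 window held 6 reads in sample 1 (4.48-fold) and 2 in sample 2 (4.55-fold). Against the surrounding 50 kb sample 1 reached 7.55-fold there, at an adjusted exact Poisson p of 0.0243, and was not called.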
